A study of Mus musculus with 24 samples.

Results

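The clustered protocadherins are cell-surface adhesion proteins encoded by 3 adjoining gene arrays, alpha, beta and gamma, on mouse chromosome 18. Members were taken as every probe other than a control whose gene name on the array was a Pcdha, Pcdhb, Pcdhga, Pcdhgb or Pcdhgc name followed by its isoform number. This gave 45 of the 41174 probes, carrying 32 of the array's 27845 gene names: 6 probes of the alpha cluster, 29 of the beta cluster and 10 of the gamma cluster. In the mm8 coordinates of the file headers the alpha probes lay between positions 37081062 and 37313396 of chromosome 18, the beta probes between 37393102 and 37647048, and the gamma probes between 37790030 and 37967755. For 42 of the 45 the file's accession was in the RefSeq gene table, with the same symbol in all 42. No member carried the name Pcdhac1, Pcdhgc3, Pcdhgc4 or Pcdhgc5, so of the C-type isoforms only Pcdhac2 was named on the array. A gene with several probes is described by the order of its probes along the chromosome, as the first or the second probe.

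Each alpha or gamma transcript joins a variable exon, which codes for the extracellular cadherin repeats, the membrane span and part of the tail, to constant exons that are common to the whole cluster. Each beta gene is a single exon with its own promoter and no constant exon. A neuron expresses a small combination of the variable isoforms, chosen through promoters that are bound by CTCF and cohesin and silenced by DNA methylation, and the combination on the surface lets a neuron tell its own branches from those of its neighbours. The C-type isoforms at the end of the alpha and gamma clusters are expressed more constitutively. The family is best known in brain, and is only weakly expressed in most other organs.

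The arrays compared newborn female mice of the (C57BL/6 x DBA2) x 129/Sv background in 3 groups of 4 arrays for each of 2 tissues, brain and liver. NC were normal controls made by intracytoplasmic sperm injection (ICSI), CC were clones made by transfer of somatic nuclei from cumulus cells, and G20 were clones that had been recloned serially from cumulus cells up to generation 20. All 3 groups therefore came from embryos that had been manipulated in culture, and none was naturally conceived. The NC and CC labels name 4 animals for both tissues, whereas every G20 array carries a single source label, so the spread behind the p-values of G20 comparisons is that between these samples and may be technical. RNA came from bulk tissue, in which fewer cells of a type and less RNA per cell cannot be told apart. A value below, called a level, is the log2 processed signal of a probe minus its array's 75th percentile over all probes. A probe is called where limma's p-value, adjusted by the Benjamini-Hochberg method over all tested probes, was under 0.05.

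Each tissue group was hybridised on a slide of its own, so a group cannot be told apart from its slide. The NC and G20 arrays of a tissue were scanned on the same day, and the CC arrays of both tissues in a later session, so the effect of being CC and that of the scan session cannot be told apart. Brain NC and G20 arrays were scanned 49 days after liver NC and G20 arrays. In these groups tissue therefore cannot be told apart from scan session. The share of probes well above background ran from 68.0 to 70.3% on brain NC arrays, from 62.4 to 63.8% on brain CC and from 68.1 to 70.6% on brain G20. In liver it ran from 57.7 to 59.6%, 53.5 to 56.3% and 60.5 to 62.9%. The 75th percentile of signal was lowest on the CC arrays of each tissue: 386.7 to 449.6 in brain CC against 788.0 to 908.9 in brain NC, and 225.9 to 253.3 in liver CC against 263.0 to 323.5 in liver NC. The tissue labels were borne out by their defining markers: 12 of 12 neuron markers were above background on every brain array of each group, and 6 of 6 hepatocyte markers on every liver array of NC and G20 and 4 of 6 on every liver CC array. A spot flagged as an outlier was counted as not above background. Those absent from the CC count were Alb and Fgb, whose larger standard errors in CC comparisons show missing values. The median hepatocyte marker level was 7.56 to 7.73 on the liver CC arrays.

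Most members were detected in brain. Of the 45 probes, 39 were well above background on all 4 NC arrays, 36 on all 4 CC arrays and 40 on all 4 G20 arrays, beside 65.9%, 59.6% and 66.1% of all probes. On all 12 brain arrays 36 members were above background, where 58.7% of all probes were. These 36 were the 6 alpha probes, 26 of the 29 beta probes, the second Pcdhga4 probe and 3 probes near the end of the gamma cluster. The 4 members above background on no brain array were Pcdhb1, the first Pcdhb12 probe, the first Pcdhga4 probe and Pcdhga12. Pcdhb1 is the most upstream beta gene, and the first Pcdhb12 probe is the only member whose coordinates run in reverse order in the file.

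Detection of the gamma isoforms was partial in brain. Of 7 probes for single gamma isoforms, 4 were above background on every NC array, 1 on every CC array and 4 on every G20 array. Pcdhb2 was the beta member whose detection varied between the brain groups, with 3 NC arrays, 0 CC arrays and 4 G20 arrays above background. The first Pcdhga9 probe was above background on 3 NC arrays and on no CC or G20 array.

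In liver few members were detected. All 4 arrays were above background for 10 of 45 probes in NC, 7 in CC and 13 in G20, beside 54.5%, 50.7% and 57.8% of all probes. The 5 members above background on all 12 liver arrays, where 49.7% of all probes were, were the second Pcdhb17 probe, Pcdhb21, the second Pcdhga4 probe and the third and the fourth Pcdhga9 probes, and 20 members were above background on none. In liver CC replicate 1 the median level of the 12 neuron markers was -2.05, against -5.57 to -5.21 on the other CC arrays, and the summed neuron marker signal of the CC arrays ran from 0.752 to 3.35 times the 75th percentile against 0.513 to 0.561 in NC and 0.506 to 0.848 in G20. Without replicate 1, members above background on at least 1 liver CC array numbered 12 in place of 16, and members on every CC array again numbered 7. The part of these markers in the liver counts was not tested.

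**Figure D1:**
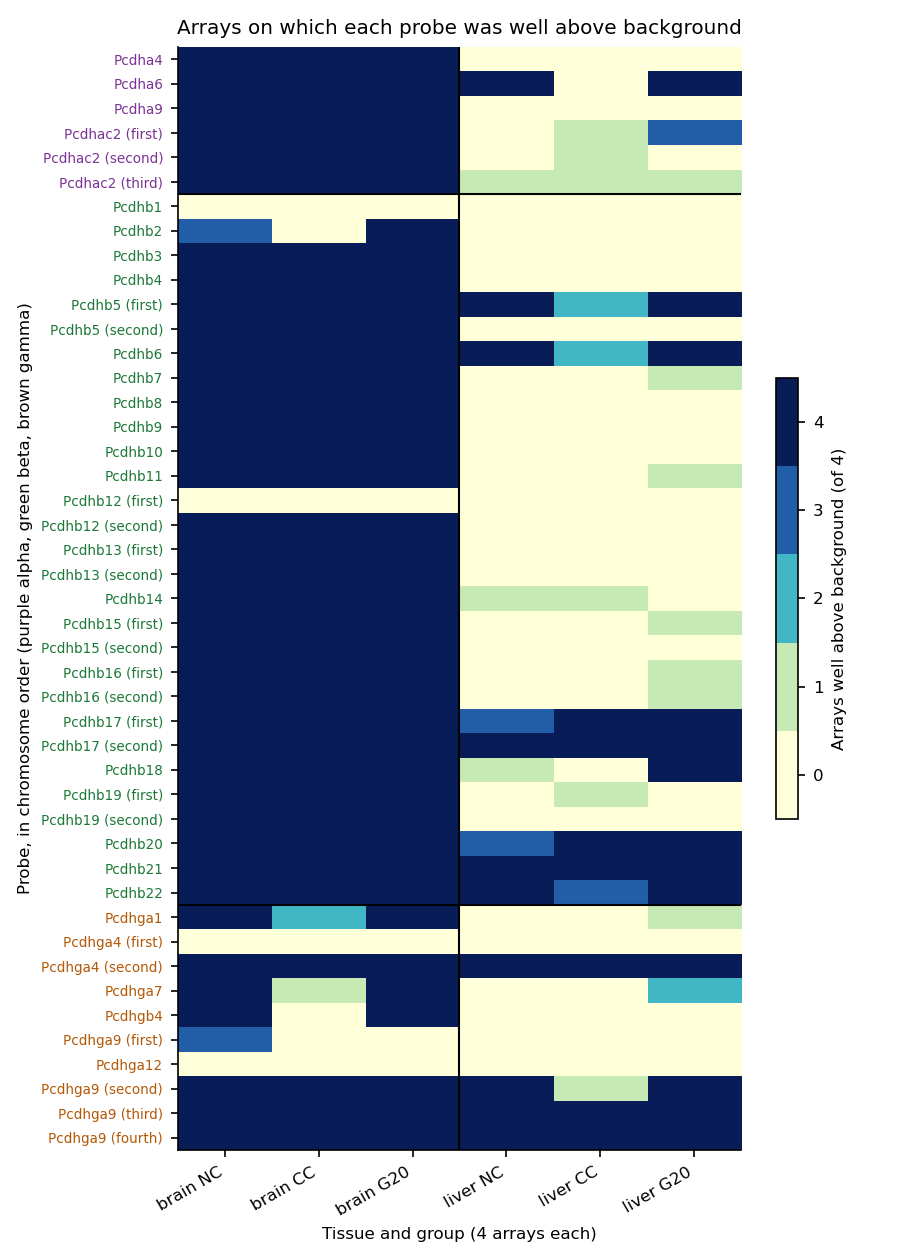
Number of arrays, of 4, on which each of the 45 probes was well above background, for brain and liver by group (columns), with probes in chromosome order (rows) and names coloured by cluster. Brain columns are filled for 36 to 40 probes, whereas liver columns are filled for 7 to 13.

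In brain, 20th-generation clones had higher signal than ICSI controls at 6 beta probes of 5 genes, and no member was called lower. The 6 were Pcdhb3, the second Pcdhb5 probe, both Pcdhb17 probes, Pcdhb21 and Pcdhb22, of 40 members tested, beside 1.38% of all tested probes called, 0.892% higher and 0.493% lower. The rises were between 1.26-fold and 1.45-fold. Pcdhb17, Pcdhb21 and Pcdhb22 lie at the downstream end of the beta cluster, where Pcdhb18, Pcdhb19 and Pcdhb20 between them were not called. The encoded proteins are beta-type adhesion molecules without the cytoplasmic constant domain of the alpha and gamma proteins.

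The second Pcdhb17 probe read 0.57, 0.59, 0.48 and 0.49 on the 4 NC arrays and 0.96, 0.94, 1.01 and 0.78 on the 4 G20 arrays, a difference of 0.39 ± 0.068 (SE), adjusted p = 0.0152. The first Pcdhb17 probe, 356 bases upstream, read 0.31, 0.36, 0.28 and 0.35 in NC and 0.72, 0.62, 0.78 and 0.64 in G20, a difference of 0.36 ± 0.066 (SE), adjusted p = 0.0212. All G20 arrays were above all NC arrays for both probes, so 2 probes of a single gene gave the same direction, and they share a target. For Pcdhb22, the last gene of the cluster, the levels were -1.57, -1.32, -1.37 and -1.32 in NC and -0.89, -0.81, -0.83 and -1.15 in G20, a difference of 0.48 ± 0.092 (SE), adjusted p = 0.0276. Pcdhb21 read 1.13, 1.26, 1.34 and 1.17 in NC and 1.74, 1.74, 1.47 and 1.55 in G20, a difference of 0.40 ± 0.081 (SE), adjusted p = 0.0346. For these neighbours too the groups did not overlap, and the lowest G20 array of Pcdhb22 was replicate 4 and that of Pcdhb21 replicate 3.

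Pcdhb3, near the upstream end of the beta cluster, read -0.25, 0.13, -0.045 and 0.099 in NC and 0.35, 0.60, 0.64 and 0.49 in G20, a difference of 0.54 ± 0.11 (SE), adjusted p = 0.0419. The second Pcdhb5 probe read -3.27, -3.05, -3.21 and -3.18 in NC and -2.83, -2.89, -2.80 and -2.88 in G20, a difference of 0.33 ± 0.071 (SE), adjusted p = 0.0461. The NC arrays of Pcdhb3 were spread more widely than its G20 arrays, with replicate 1 the lowest, and the groups of both genes were again apart. The first Pcdhb5 probe, 230 bases upstream of the second, differed by 0.21 ± 0.084 (SE) with adjusted p = 0.213 and had a G20 array inside the NC range.

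**Figure D2:**
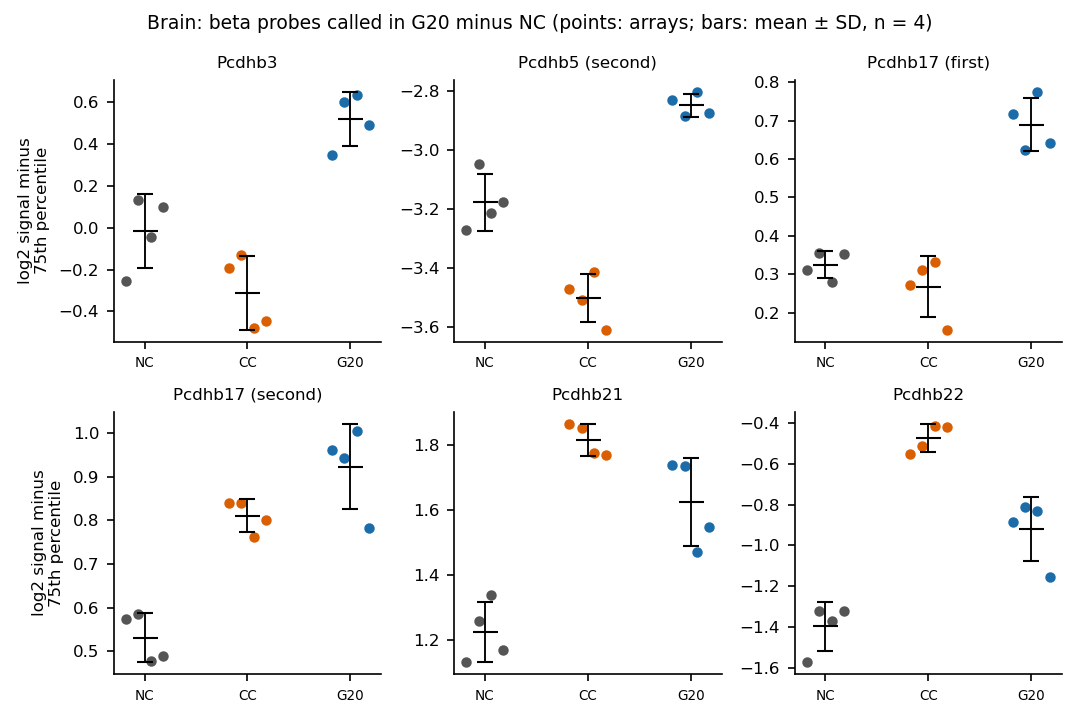
Levels (log2 signal minus the array's 75th percentile) of the members called between brain G20 and NC, with 1 point per array and a bar at each group's mean for NC, CC and G20. For all 6 probes the 4 G20 points lie above the 4 NC points, and the CC points lie above G20 for Pcdhb21 and Pcdhb22 but below NC for Pcdhb3 and the second Pcdhb5 probe on average.

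The calls rested on small margins. No member was called without brain G20 replicate 1, with normexp background correction (0 of all probes were then called) or when only the 2 groups entered the fit. The count was 1 without NC replicate 1 or with no filter on dim probes, 2 without G20 replicate 2 or with centring on the median, and 3 without NC replicate 2, NC replicate 4 or CC replicate 4.

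None of the other beta probes passed the test. Of the 27 tested beta probes, the 6 called ones included, 23 had a positive G20 minus NC difference and 4 a negative one, with a median of 0.28 on the log2 scale, beside a median of 0.016 and 53.5% positive differences over all tested probes. At an unadjusted p under 0.05 there were 17 beta probes, among them Pcdhb8, which was lower in G20 (-0.32). For this and the other counts at an unadjusted p, the share of all tested probes is not given here. Some differences that missed the threshold were as large as called ones, among them the second Pcdhb16 probe at 0.46 ± 0.14 and Pcdhb14 at 0.41 ± 0.10 (SE), with adjusted p of 0.126 and 0.0684 from limma. Pcdhb2 had the largest difference in the family without being called: it read -6.25, -4.48, -5.16 and -5.07 in NC and -4.09, -3.82, -4.002 and -4.06 in G20, 1.25 ± 0.33 (SE) with adjusted p = 0.0916. The NC arrays of Pcdhb2 were far apart and replicate 1 was not above background, so the group that varied was the control. Pcdhb2 passed the filter on background only through G20, where it was high, and it counts among the 23 positive differences. The most negative beta difference was that of Pcdhb4, -0.36 ± 0.18 (SE) with adjusted p = 0.298, whose NC replicate 2 stood apart from the other NC arrays at -1.90.

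No alpha or gamma member was called, beside 1.38% of all tested probes called. Of 6 alpha probes, 0 passed the threshold between brain G20 and NC in limma, with 2 at an unadjusted p under 0.05 and a median difference of -0.11. Pcdha6, an alternate alpha isoform, read -0.81, -0.39, -0.58 and -0.26 in NC and -1.12, -0.96, -1.08 and -0.94 in G20, a difference of -0.51 ± 0.14 (SE), adjusted p = 0.0877. Its G20 arrays were all below its NC arrays, yet the difference did not pass the adjusted threshold. Pcdha4 and Pcdha9 differed by -0.031 and -0.32, with adjusted p of 0.925 and 0.208 from limma. Of 7 tested gamma probes limma called 0, with 0 at an unadjusted p under 0.05 and a median of 0.0035. The gamma differences ran from -0.32 at Pcdhgb4, a type B gamma isoform, to 0.37 at Pcdhga1, the first gamma gene.

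Markers of other cell types were read beside the beta probes. Of 70 tested genes from 12 cell type marker lists, limma called 0 higher and 1 lower in brain G20, the microglial complement gene C1qb (-0.52 ± 0.11 SE, adjusted p = 0.0475), with 18 at an unadjusted p under 0.05. Of all tested probes, 1.38% were called in this comparison. The 12 neuron markers had a median difference of 0.0088 and 0 were called. For the 6 cortex markers the median difference between brain G20 and NC was -0.43. Limma called 0 of these 6, with 4 at an unadjusted p under 0.05. The ranges of the erythroid markers did not overlap between the groups, although limma called 0 of the 4 tested. The median level of the 6 on the array ran from -1.45 to 0.021 in G20 and from -6.12 to -1.99 in NC, and their summed signal from 201 to 221 times the 75th percentile in G20 and from 82.1 to 179 in NC. The standard error of Hbb-b1 was larger against NC (0.187) than between G20 and CC (0.173), so a value was missing in NC. The NC ranges thus do not cover the same genes on every array. Klf1, an erythroid transcription factor, differed by 1.499 ± 0.43 and Alas2, an enzyme of haem synthesis in red cells, by 1.38 ± 0.47 (SE), with adjusted p of 0.112 and 0.163 from limma. Summed signal of the 6 microglia and macrophage markers was lower in G20, from 2.25 to 2.59 against 2.91 to 3.18 in NC, and that of the neural progenitor markers higher, from 86.0 to 99.1 against 76.4 to 83.5. The median levels of both lists overlapped between the groups. They ran from -1.415 to -1.271 in G20 and -1.306 to -1.021 in NC for microglia and macrophage markers. For neural progenitor markers they ran from 1.529 to 1.639 in G20 and 1.452 to 1.651 in NC. Aif1 in the first list, and Nes and Eomes in the second, differed in the other direction. The median level of 4 choroid plexus markers was -3.47 in brain G20 replicate 2 and between -0.29 and 0.28 on the other G20 arrays, and that of 8 hindbrain markers was -3.06 in replicate 2 and -4.85 to -4.36 on the others. The summed choroid plexus signal ran from 0.555 to 4.26 times the 75th percentile in G20 and from 3.45 to 4.75 in NC. Their part in the result was not tested.

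**Figure D3:**
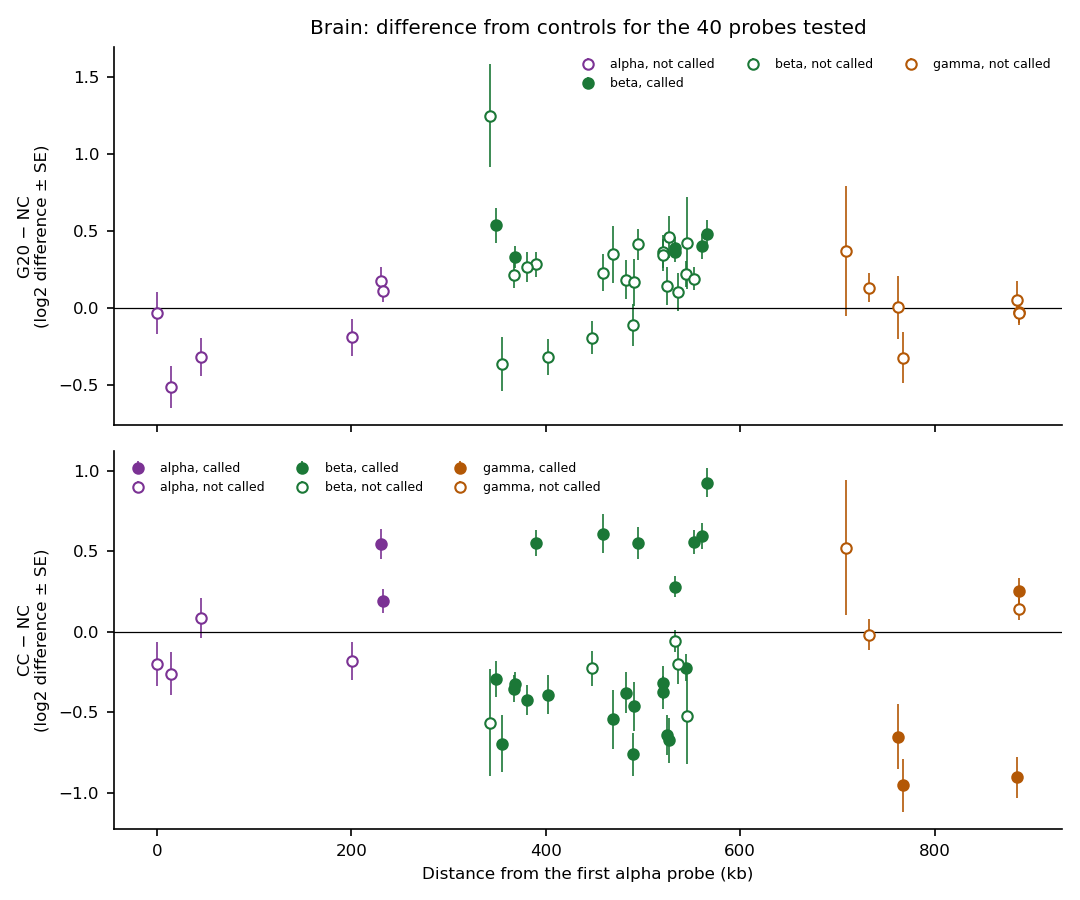
Log2 difference from NC with its standard error for the 40 probes tested in brain, against distance in kb from the first alpha probe, for G20 (upper panel) and CC (lower panel), coloured by cluster and filled where called. In G20 the called probes are 6 beta probes above 0, whereas in CC called probes lie on both sides of 0, with 7 beta probes higher and 15 lower.

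Brains of the CC clones differed from controls at many members and in both directions. In CC, 10 members were called higher and 18 lower of 40 tested, beside 68.4% of all tested probes called, 35.8% higher and 32.5% lower. The share of members called, 70.0%, was thus close to that of all probes. By cluster, 2 alpha probes were called higher and 0 lower, 7 beta higher and 15 lower, and 1 gamma higher and 3 lower. Cumulus cells, which surround the oocyte, were the nuclear donors of both CC and G20.

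By smallest adjusted p, the members that rose in CC brain were led by genes at the end of the beta cluster. Pcdhb22 read -0.55, -0.51, -0.41 and -0.42 on the CC arrays, 1.9-fold above NC (0.92 ± 0.092 (SE), adjusted p = 3.1e-06). Pcdhb21 read 1.86, 1.85, 1.78 and 1.77, 1.51-fold above NC (0.59 ± 0.081 (SE), adjusted p = 3.91e-05). Pcdhb20 read 0.98, 1.04, 1.16 and 1.16 in NC and 1.61, 1.70, 1.60 and 1.65 in CC, a difference of 0.55 ± 0.073 (SE), adjusted p = 3.01e-05. In each of these 3 neighbouring genes every CC array was above every NC array. Pcdhb7, Pcdhb10 and Pcdhb14, which are spread along the middle of the cluster, rose by 0.55, 0.61 and 0.55, with adjusted p of 7.57e-05, 0.000757 and 0.00037 from limma. The second Pcdhb17 probe rose by 0.28 ± 0.068 (SE, adjusted p = 0.00284) while the first Pcdhb17 probe differed by -0.058 ± 0.066 (SE, adjusted p = 0.455), so the probes of this gene did not give the same result.

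The members that fell included gamma isoforms and beta genes from Pcdhb3 to Pcdhb19. Pcdhgb4 was above background on 4 NC arrays and on 0 CC arrays, at -4.68, -4.63, -4.51 and -4.53 in NC and -5.47, -5.49, -5.29 and -5.93 in CC, so CC was at least 1.94-fold lower (adjusted p = 0.000246 from limma). Such a bound sets the brighter group's mean against, on each dim array, the higher of the dimmest signal among probes well above background and the probe's own. Pcdhga7, a type A gamma isoform, fell by -0.65 ± 0.20 (SE, adjusted p = 0.0123), with 1 of 4 CC arrays above background. Pcdhgb4 and Pcdhga7 passed the filter on background only through NC and G20, so their differences are given as a description only. Both Pcdhb16 probes fell, the first from -2.07 ± 0.11 to -2.72 ± 0.26 and the second from -1.21 ± 0.26 to -1.88 ± 0.19 (mean ± SD, n = 4), with adjusted p of 0.00059 and 0.000939 from limma. These were falls of 1.56-fold and 1.6-fold, and the CC arrays lay below the NC arrays at both probes.

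Pairs of probes for the same beta gene fell together in several other cases. The first and second Pcdhb13 probes differed by -0.76 and -0.46 in CC, with adjusted p of 0.000317 and 0.0167 from limma. The Pcdhb5 probes differed by -0.36 and -0.32, and the Pcdhb15 probes, whose starts are 40 bases apart and whose targets overlap, by -0.38 and -0.32, all 4 called. Pcdhb4 fell by -0.70 ± 0.18 (SE, adjusted p = 0.00395) and Pcdhb6 by -0.42 ± 0.095 (SE, adjusted p = 0.00169). Pcdhb3, Pcdhb8, Pcdhb11, the second Pcdhb12 probe and the first Pcdhb19 probe were also called lower, by -0.30, -0.39, -0.54, -0.38 and -0.22. The Pcdhb18 probe, whose file entry lists accessions of Pcdhb17, Pcdhb18 and Pcdhb20, was not called (-0.20 ± 0.12 SE, adjusted p = 0.163). Pcdhga1 was higher by 0.52 ± 0.42 (SE, adjusted p = 0.286), which rested on CC replicate 3 at -2.91 against -5.25 to -5.18 on the other CC arrays. Without that array its difference was -0.056.

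Calls in CC brain were also counted by how bright a probe was in controls. Among all tested probes with an NC level under -4, 30.7% were called higher and 27.8% lower, between -4 and -2 the shares were 26.9% and 38.5%, between -2 and 0 30.7% and 39.0%, between 0 and 2 40.4% and 31.6%, and above 2 56.6% and 19.1%. Of the members, 0 were called higher and 2 lower under -4, 2 higher and 8 lower between -4 and -2, 1 higher and 7 lower between -2 and 0, 4 higher and 1 lower between 0 and 2, and 3 higher and 0 lower above 2. Under -4, then, all probes were called higher more often than lower and the 2 called members were lower, whereas in the other ranges the more frequent direction was the same for members and for all probes. The 2 members called under -4, Pcdhga7 and Pcdhgb4, passed the filter on background only through NC and G20. The part that brightness had in the members' directions was not tested. In the authors' processed values of the same arrays, the CC columns differ from the scanner signal by a factor that varies from probe to probe, with an SD of the log2 ratio of 0.631 to 0.642 in brain CC against 0.010 to 0.043 in brain NC and G20. On those values 6 of 37 members were called in brain CC against NC, 0 higher and 6 lower, beside 21.5% of all probes called, of which 1.69% were higher, and Pcdhb20, Pcdhb10 and the second Pcdhb17 probe were at -0.048, -0.019 and -0.099. With normexp correction 5 members were called, 4 higher and 1 lower, beside 23.4% of all probes, and with centring on the median 11 higher and 10 lower, beside 68.6%.

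Markers of other organs also differed in CC brain. All 4 tested hepatocyte markers were called higher, with a median difference of 2.07, and the summed hepatocyte marker signal ran from 0.339 to 2.36 times the 75th percentile in CC, from 0.198 to 0.246 in NC and from 0.224 to 0.483 in G20. The median hepatocyte marker level was -1.45 in CC replicate 1 and -4.33 to -2.79 on the other CC arrays. Of the 12 neuron markers, 4 were called higher and 5 lower, and over the 12 lists 30 of 70 tested markers were called higher and 16 lower, which is 46 of 70 beside the 68.4% of all tested probes called. Their part in the members' differences was not tested.

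Between the 2 kinds of clone in brain, G20 was called higher than CC at 20 members and lower at 8, beside 66.7% of all tested probes called, 32.8% higher and 33.9% lower. The beta cluster held 17 of the higher and 4 of the lower calls. Pcdhb2 was above background on 4 G20 and 0 CC arrays and was at least 3.25-fold higher in G20 (adjusted p = 0.000451 from limma), with CC levels of -4.97, -5.95, -6.12 and -6.18. It passed the filter on background only through G20, so its difference is given as a description only. Pcdhga7 and Pcdhgb4, also among the higher calls, passed the filter only through NC and G20, and the same holds for them. The second Pcdhb16 probe, at -0.70, -0.98, -0.74 and -0.57 in G20 and -1.72, -1.72, -2.05 and -2.04 in CC, was 2.19-fold higher (1.13 ± 0.14 (SE), adjusted p = 1.95e-05), and every G20 array was above every CC array. Pcdhb3 was higher in G20 by 0.83 ± 0.11 (SE, adjusted p = 4.27e-05) and Pcdhb6 by 0.69 ± 0.095 (SE, adjusted p = 4.87e-05). The other members among the 10 smallest adjusted p-values that were higher in G20 were the second Pcdhga9 probe by 0.96, the first Pcdhb16 probe by 0.79, the Pcdhb15 probes by 0.72 and 0.68, the Pcdhb5 probes by 0.57 and 0.65, and the first Pcdhb17 probe by 0.42. The members lower in G20 than in CC were Pcdhb22, Pcdha9, Pcdhb10, Pcdhb20, Pcdhb7, the second Pcdhac2 probe and the third and the fourth Pcdhga9 probes, with differences from -0.45 at Pcdhb22 to -0.17 at the third Pcdhga9 probe. This comparison shares its CC arrays with the comparison of CC and NC and its G20 arrays with that of G20 and NC. On the authors' processed values 16 members were called, 15 higher and 1 lower, beside 23.8% of all probes called, of which 97.1% were higher, and a median difference of 0.23 over all probes, with Pcdhb22 at 0.19 and Pcdhb20 at 0.24 in place of -0.45 and -0.36.

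Probes named for the last gene of the alpha cluster, and probes near the end of the gamma cluster, list accessions of several isoforms and so read the cluster rather than 1 promoter. The 3 Pcdhac2 probes each list 4 alpha genes: the first and second Pcdha11, Pcdha9, Pcdhac1 and Pcdhac2, and the third Pcdha4, Pcdha6, Pcdha9 and Pcdhac2. The first Pcdhac2 probe spans positions 37282140 to 37285250, the second 37311078 to 37311137 and the third 37313337 to 37313396. The second to the fourth Pcdhga9 probes list Pcdhga1, Pcdhga6 and Pcdhga9 and lie at 37966045 to 37966104, 37967676 to 37967735 and 37967696 to 37967755, so the third and the fourth, whose starts are 20 bases apart, largely share their target.

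None of these 6 probes was called between G20 and NC in brain, with 0 at an unadjusted p under 0.05, beside 1.38% of all tested probes called. The second Pcdhac2 probe read 3.04, 3.35, 3.29 and 3.14 in NC and 3.39, 3.50, 3.32 and 3.31 in G20, a difference of 0.17 ± 0.093 (SE), adjusted p = 0.338. The third read 3.96, 3.73, 3.87 and 3.82 in NC and 3.96, 4.07, 3.97 and 3.82 in G20, a difference of 0.11 ± 0.073 (SE), adjusted p = 0.431. The groups overlapped at both probes and also at the first, whose difference was -0.19 with adjusted p = 0.406 from limma. The third and the fourth Pcdhga9 probes differed by -0.032 ± 0.067 and -0.027 ± 0.082 (SE), and the second by 0.053 ± 0.12 (SE). Adjusted p-values of the 3 gamma probes from limma were 0.833, 0.889 and 0.85. The 6 differences thus ran from -0.19 to 0.17.

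In CC brain the same probes did not move as 1. The second Pcdhac2 probe read 3.66, 3.60, 3.88 and 3.85, 1.46-fold above NC (0.54 ± 0.093 (SE), adjusted p = 0.000238), the third rose by 0.19 ± 0.073 (SE, adjusted p = 0.0349), and the first differed by -0.18 ± 0.12 (SE, adjusted p = 0.185). Among the gamma probes, the second Pcdhga9 probe read -0.79, -0.97, -0.77 and -0.74 in NC and -1.44, -1.89, -1.76 and -1.80 in CC, a fall of 1.87-fold (-0.91 ± 0.12 (SE), adjusted p = 4.21e-05). The fourth rose by 0.25 ± 0.082 (SE, adjusted p = 0.0153) and the third differed by 0.14 ± 0.067 (SE, adjusted p = 0.0832). Probes that list the same 3 gamma genes therefore gave opposite calls in CC. On quantile-normalised values the fourth Pcdhga9 probe and the third Pcdhac2 probe were at -0.31 and -0.23 in CC, and on the authors' processed values at -0.36 and -0.16.

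**Figure D4:**
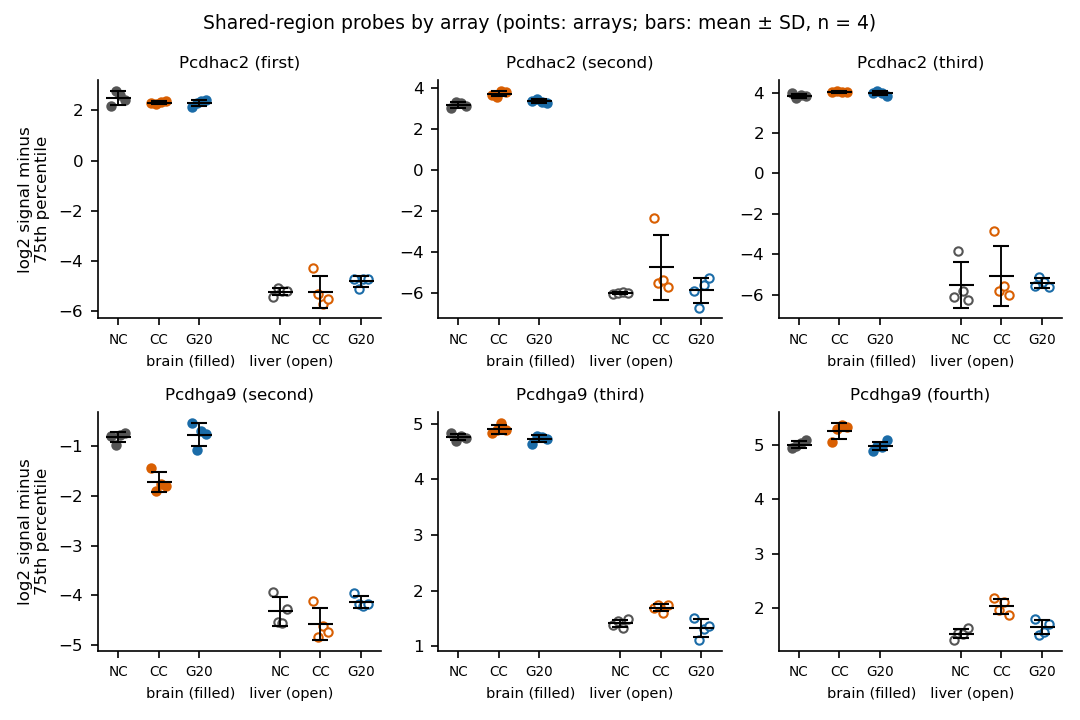
Levels (log2 signal minus the array's 75th percentile) of the Pcdhac2 probes and the second to the fourth Pcdhga9 probes, which list several isoforms, with 1 point per array in brain (filled) and liver (open) by group. Brain lies far above liver for every probe, and the second Pcdhga9 probe is lower in brain CC than in brain NC and G20.

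In liver, 13 members passed the filter on background, 8 of them beta probes. Between G20 and NC, 2 were called higher and 0 lower, beside 6.49% of all tested probes called, 3.88% higher and 2.62% lower, and both were Pcdhb17 probes. The first read -4.53, -4.30, -4.54 and -5.09 in NC and -3.95, -4.15, -3.88 and -4.03 in G20, a difference of 0.61 ± 0.15 (SE), adjusted p = 0.0301, or 1.53-fold. The second read -4.27, -3.81, -4.08 and -4.27 in NC and -3.52, -3.75, -3.57 and -3.54 in G20, a difference of 0.51 ± 0.13 (SE), adjusted p = 0.039, or 1.42-fold. All G20 arrays were above all NC arrays at both probes, which are the same probes that were higher in G20 brain. The first Pcdhb17 probe passed the filter on background in liver only through CC and G20, so its difference is given as a description only.

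The liver Pcdhb17 result depended on single arrays and on the background correction. No member was called without NC replicate 1 or without any one of the G20 arrays, and 1 of the 2 Pcdhb17 calls remained without NC replicate 4, CC replicate 2 or CC replicate 3. Without NC replicate 3 neither remained, and 1 other member was called higher. With normexp the Pcdhb17 differences turned to -1.37 and -1.20, and 11 members were called lower and 0 higher, beside 38.6% of all probes called, of which 12.9% were higher. Of 50 tested markers limma called 1 higher in liver G20, Pdgfra (0.46), and 1 lower, Ttr (-0.64), beside 6.49% of all tested probes called. The part of these markers was not tested.

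All 8 tested liver beta probes had a positive G20 minus NC difference, and the other 6 did not pass the adjusted threshold. Pcdhb18 passed the filter on background only through G20, and the first Pcdhb17 probe and Pcdhb20 only through CC and G20. The filter thus favoured positive differences at these probes, so the count of 8 and the median of the members are given as a description only. Pcdhb20 differed by 0.54, Pcdhb21 by 0.52 and Pcdhb22 by 0.40, with adjusted p of 0.13, 0.11 and 0.148 from limma. The median over the 13 members was 0.36 and over all tested probes 0.030. Among all probes with an NC level under -4, where 6 of the members lay, 11.6% were called higher and 0.693% lower, with a median difference of 0.29. Pcdha6, the only single-isoform alpha probe detected in liver, differed by -0.24 ± 0.18 (SE, adjusted p = 0.46). The second Pcdhga4 probe read -3.39, -3.73, -2.46 and -3.47 in NC and -3.03, -2.94, -2.70 and -3.23 in G20, and its groups overlapped. The third and the fourth Pcdhga9 probes differed by -0.091 and 0.11, with adjusted p of 0.587 and 0.517 from limma.

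Liver of CC clones differed from NC at 7 of the 13 members, 6 higher and 1 lower, beside 39.7% of all tested probes called, 19.6% higher and 20.1% lower. The first Pcdhb17 probe rose 1.97-fold (0.98 ± 0.15 (SE), adjusted p = 0.000334), the second 1.79-fold (0.84 ± 0.13 (SE), adjusted p = 0.000423) and Pcdhb21 1.81-fold (0.86 ± 0.18 (SE), adjusted p = 0.00316). Pcdhb20 rose 1.78-fold (0.83 ± 0.20 (SE), adjusted p = 0.00675). In these 4 probes all CC arrays were above all NC arrays. The first Pcdhb17 probe and Pcdhb20 passed the filter on background only through CC and G20. Their differences and their part in the count of higher calls are therefore given as a description only. The fourth Pcdhga9 probe read 1.42, 1.54, 1.53 and 1.64 in NC and 2.18, 1.96, 2.11 and 1.87 in CC, a rise of 0.50 ± 0.096 (SE), adjusted p = 0.00178, and the third rose by 0.28 ± 0.090 (SE, adjusted p = 0.0274).

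Pcdha6 was the member that fell. It read -3.39, -3.29, -3.29 and -3.19 in NC and -4.77, -4.26, -5.23 and -4.60 in CC, was above background on 4 NC and 0 CC arrays, and was at least 2.69-fold lower (adjusted p = 0.000106 from limma). Against CC, G20 liver was at least 2.27-fold higher at Pcdha6 (adjusted p = 0.000312 from limma). Pcdha6 passed the filter on background in liver only through NC and G20, so both of its differences from CC are given as a description only. The other members called between G20 and CC, beside 43.7% of all tested probes called, 23.6% higher and 20.1% lower, were the third and the fourth Pcdhga9 probes, lower in G20 by -0.37 ± 0.090 and -0.38 ± 0.096 (SE) with adjusted p of 0.00595 and 0.00706. The count of 3 became 6 without NC replicate 2 or NC replicate 4. No member was called between CC and NC, or between G20 and CC, with normexp or on the authors' processed values, where the third and the fourth Pcdhga9 probes were at -0.25 and -0.026 in CC minus NC. Of all probes, normexp called 0.918% in CC minus NC and 11.8% in G20 minus CC, and on the authors' values 16.0% and 0% were called, so these counts of 0 say little about the members.

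Liver CC replicate 1, whose neuron markers stood above those of the other arrays, was also the highest CC array for the Pcdhac2 probes. The second Pcdhac2 probe read -2.35, -5.51, -5.37 and -5.69 on the CC arrays, the third -2.85, -5.83, -5.55 and -6.01 and the first -4.29, -5.31, -5.72 and -5.52. Replicate 1 was the sole CC array above background for each of the 3. Of 4 tested neuron markers, 2 were called higher in liver CC and 0 lower, and of all 50 tested markers 12 were called higher and 13 lower, beside the 39.7% of all tested probes called. The part of these markers in the liver CC values was not tested, and the counts of members called in CC against NC were 7 with replicate 1 and 8 without it.

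**Figure D5:**
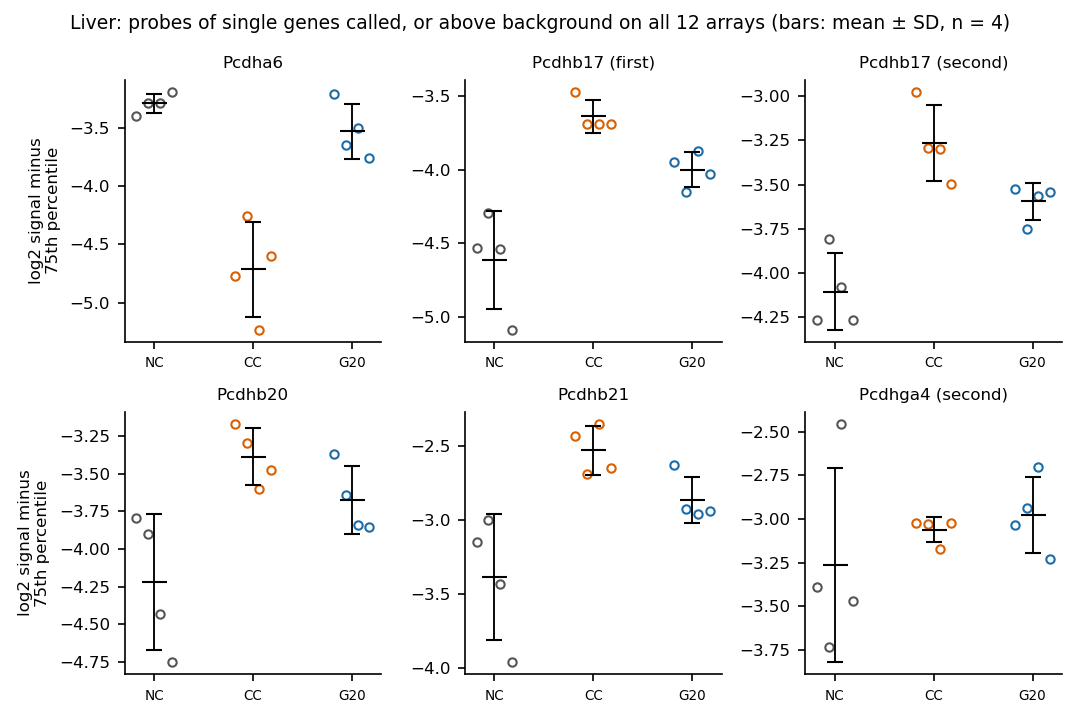
Levels (log2 signal minus the array's 75th percentile) in liver, with 1 point per array and a bar at each group's mean. Shown are probes of single genes that were called between liver groups or were above background on all 12 liver arrays. Probes that list several isoforms, such as the third and the fourth Pcdhga9 probes, are left out. The Pcdhb17 points rise from NC to G20 and CC, and the Pcdha6 points of CC lie below those of NC and G20.

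More members were detected in brain than in liver, and the brain signal was the higher at most of them. The 40 members tested between the tissues passed the filter mostly through brain, since 13 passed in liver, so their counts are given as a description only. In NC, 38 of 40 tested members were called higher in brain and 1 lower, beside 87.6% of all tested probes called, 44.9% higher and 42.7% lower. In CC the counts were 35 and 1, beside 82.8% of all tested probes called, 40.2% higher and 42.7% lower. In G20 they were 37 and 1, beside 87.9%, 44.7% and 43.2%. With no filter, so over all 45 members, 39 were called higher in brain and 5 lower in NC, 35 and 6 in CC and 38 and 4 in G20, beside 87.1%, 81.7% and 85.2% of all probes called. In liver NC 30 of the 45 members were above background on no array and 5 on some arrays, so for these the size of the difference is set by the liver background.

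The Pcdhac2 probes, which list several alpha isoforms, were bright in brain and at or near background in liver. In NC the second Pcdhac2 probe was 3.21 ± 0.14 in brain and -5.99 ± 0.050 in liver (mean ± SD, n = 4), with 0 liver arrays above background, so brain was at least 550-fold higher, and the first was at least 209-fold higher. The third read 3.96, 3.73, 3.87 and 3.82 in brain and -6.09, -3.85, -5.81 and -6.26 in liver, where 1 of 4 arrays was above background, so no fold is given. Pcdha9 was at least 77.1-fold, Pcdhb7 at least 53.1-fold and Pcdhb3 at least 51.6-fold higher in brain. Pcdha6, measured on all arrays of both tissues in NC, differed by 2.78 ± 0.17 (SE). Of the beta probes measured on both sides in NC, the second Pcdhb17 probe differed by 4.64, Pcdhb21 by 4.61 and Pcdhb6 by 4.48, and the second, the third and the fourth Pcdhga9 probes by 3.51, 3.34 and 3.48. Each of the members named in this paragraph had an adjusted p under 0.05 from limma.

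The second Pcdhga4 probe was the exception. Its level was lower in brain than in liver by -0.53 ± 0.18 in NC, -0.75 ± 0.18 in CC and -0.68 ± 0.18 in G20 (SE), with adjusted p of 0.0096, 0.000646 and 0.00135 from limma. The probe was above background on all arrays of both tissues. Its brain levels in NC were -3.79, -4.06, -3.66 and -3.65, which overlapped the liver levels. A level is relative to the array's 75th percentile, 788.0 to 908.9 in brain NC and 263.0 to 323.5 in liver NC. The lower brain level in NC is therefore not a lower scanner signal. The first Pcdhga4 probe, 1834 bases upstream, was above background on no array of either tissue, so a second probe for this gene gave no level. With normexp, members called between the tissues in NC numbered 24, of which 14 were higher and 10 lower in brain, beside 78.4% of all probes called, of which 26.2% were higher.

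Whether a clone's difference from controls was the same in brain and liver was tested for the 13 members measured in both. For G20, limma called 0 of 13, with 0 at an unadjusted p under 0.05, beside 3.31% of all tested probes called, 1.72% higher and 1.58% lower. The first Pcdhb17 probe differed between G20 and NC by 0.36 in brain and 0.61 in liver, a difference of -0.25 ± 0.16 (SE), and the second by 0.39 and 0.51, a difference of -0.12 ± 0.14 (SE). For CC, 6 of 13 were called, 2 higher and 4 lower in brain than in liver, beside 53.2% of all tested probes called, 29.5% higher and 23.6% lower. The CC minus NC difference of Pcdha6 was -0.26 in brain and -1.43 in liver, and that of Pcdhb22 was 0.92 in brain and 0.030 in liver. Those of the first and second Pcdhb17 probes were -0.058 and 0.28 in brain against 0.98 and 0.84 in liver. Pcdhb6 and the second Pcdhga9 probe fell in brain and were at 0.26 and -0.25 in liver. In liver the first Pcdhb17 probe passed the filter on background only through CC and G20. Pcdha6, Pcdhb6, Pcdhb22 and the second Pcdhga9 probe passed it there only through NC and G20. The differences of differences at these members are given as a description only.

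Genes that lie within or beside the 3 clusters gave values for the same stretch of chromosome. Of 28 other probes within 200 kb of the members, 13 lay inside the span and 15 outside. In brain G20 against NC the smallest adjusted p among the neighbours tested was 0.131 from limma, at 3222401L13Rik (0.32 on the log2 scale). No neighbour was thus called, beside 1.38% of all tested probes called. At that share, the absence of a call among so few probes says little about the neighbours. In brain CC against NC, where 68.4% of all tested probes were called, neighbours went both ways: Zmat2 and Ik, upstream of the alpha cluster, were higher by 1.25 and 0.83. Taf7, between the beta and gamma clusters, codes for a subunit of the general transcription factor TFIID. Its probes did not give the same result, since 2 were called lower, at -0.998 and -1.04, and another was at 0.20 with adjusted p = 0.095 from limma. The uncharacterised transcripts C130024J02Rik, within the alpha cluster, and AK080322, within the gamma cluster, were at -0.60 and -1.58. The Taf7 probe at -0.998 and AK080322 were above background on 0 brain CC arrays, so the size of these differences is limited by the background. Both passed the filter on background in brain only through NC and G20.

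Genes that act on the clusters were read from a fixed list of architectural and silencing factors. In brain G20 against NC, limma called 0 of 22 tested, with 2 at an unadjusted p under 0.05, beside 1.38% of all tested probes called. In brain CC 7 were called higher and 8 lower, and 15 of 22 is near the 68.4% of all tested probes called there. Those higher were Smchd1, a structural-maintenance protein that represses clustered protocadherin genes, at 0.96 (adjusted p = 2.67e-07), the cohesin subunits Smc1a and Rad21 at 0.79 and 0.71, the DNA methyltransferases Dnmt3a and Dnmt1 at 0.78 and 0.39, Uhrf1 at 0.38 and Hnrnpu at 0.23. Among those lower were Setdb1, a histone H3 lysine methyltransferase, at -1.35 (adjusted p = 4.02e-07), the cohesin subunits Stag2 and Smc3 at -0.72 and -0.47, the cohesin regulators Pds5b, Mau2 and Nipbl at -0.68, -0.62 and -0.33, and Lrif1 at -0.45. In liver G20 1 of 22 was called higher, Atf7ip, a partner of Setdb1 (0.38 ± 0.072 SE, adjusted p = 0.0123), and 0 lower, beside the 6.49% of all tested probes called.

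In liver CC 9 factors were called higher and 5 lower of 22, beside the 39.7% of all tested probes called. Those higher were Pds5b at 0.78, Wapal at 0.61, Rad21 at 0.58, Ctcf at 0.38, Smchd1 at 0.35, Dnmt3b at 0.35, Smc1a at 0.33, Dnmt3a at 0.32 and Stag2 at 0.27. Those lower were Setdb1 at -0.59, Trim28 at -0.53, Mau2 at -0.44, Lrif1 at -0.38 and Smc3 at -0.33. Pds5b and Stag2 were thus called lower in CC brain and higher in CC liver; the difference between the tissues was not tested for these genes. Between G20 and CC, 9 were called higher and 6 lower in brain, and 5 higher and 8 lower in liver, beside 66.7% and 43.7% of all tested probes called.

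Partners of the proteins, among them the WAVE complex that links their tails to actin and the proteases that cleave them, were read from a second list. Limma called 0 of 21 tested partners in brain G20 against NC (4 at an unadjusted p under 0.05) and 0 of 20 in liver (3 at that p). Of all tested probes, 1.38% were called in that comparison in brain and 6.49% in liver. In brain CC 4 were called higher and 10 lower, and 14 of 21 is near the 68.4% of all tested probes. The smallest adjusted p-values were those of Nckap1, a WAVE complex subunit, at -2.11, the gamma-secretase subunits Ncstn and Psen2 at -1.55 and 0.82, and Fyn, a tyrosine kinase, at -0.74. In liver CC 3 were called higher and 4 lower of 20, beside 39.7% of all tested probes, led by Ptk2, a focal adhesion kinase, at 0.45, and the WAVE complex subunits Cyfip1, Brk1 and Abi2 at -0.33, 0.35 and 0.63.

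The non-clustered protocadherins, single genes elsewhere in the genome, were read in the same way. Limma called 0 of 13 tested in brain G20 against NC (1 at an unadjusted p under 0.05), beside 1.38% of all tested probes called, with a median of 0.031. In brain CC 6 were called higher and 4 lower, 10 of 13 beside the 68.4% of all tested probes, led by Pcdh1 at 1.16, Pcdh12 at 0.87, Pcdh17 at 0.64 and Pcdh9 at -0.52 by smallest adjusted p. In liver 5 were tested, and Pcdh19 rose by 1.06 ± 0.13 in G20 (SE, adjusted p = 0.0013) and by 0.73 ± 0.13 in CC (SE, adjusted p = 0.00108), where Pcdh12 also rose by 0.46 (adjusted p = 0.0411), beside 6.49% and 39.7% of all tested probes called. No test compared the clustered with the non-clustered genes.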

How the data were processed

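RNA from newborn brain and liver, extracted with Trizol and amplified to Cy3-labelled cRNA per the labels' protocols, was measured on 24 single-colour arrays, 4 for each tissue and group. Per the file headers and the submitters' processing notes, the authors extracted features with Agilent Feature Extraction 9.5.3.1, and positions are on mm8. The deposited scanner files give, per the file headers, the processed signal as an intensity already corrected for background, together with per-spot flags for signals well above background, saturation and outliers. The authors' processed values are deposited as a table of 34140 probes, 41 of them members; set against the scanner signal they are intensities on a linear scale with column medians of 353.8 to 392.8 in brain NC and G20, 463.1 to 489.5 in brain CC, 223.6 to 282.8 in liver NC and G20 and 299.9 to 341.3 in liver CC, and no header or label says how the CC columns were made. They served as an alternative.

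Here, control spots and outlier spots were left out, spots of a probe were averaged, and each array's log2 deposited intensity was reduced by its 75th percentile. Within a tissue, probes were fitted where some group had all of its 4 arrays well above background, with limma 3.58.1 in R 4.3.3 (lmFit and eBayes over the 12 arrays), with Benjamini-Hochberg adjustment over all of them and a threshold of 0.05. Tissue differences, and differences of differences, were fitted over all 24 arrays. Each gene of a list was read from its brightest probe. Array number and signal over background limit the precision. No pair of arrays was identical. The method was tested on simulated data.

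The members and lists were chosen with earlier results of these data known. For each comparison within a tissue the text names the called members, or the 10 with the smallest adjusted p in a direction, the Pcdhac2 probes, members measured on all liver arrays, the extreme differences of each cluster in brain, called factors of the architecture list against NC (against CC by counts; 1 is not reported here) and up to 4 called genes of the other lists of cluster biology; marker lists are given mainly by counts, and genes near the clusters, Pcdhb14 and single markers were chosen after their values were seen. Normexp correction with an offset of 50, centring on the median, quantile normalisation, other filters on dim probes, 1 probe per gene name, the authors' values, fits of only 2 groups, a replicate block and leaving out each array were tried as alternatives, and liver CC without replicate 1 was added after seeing the data. Replicate numbers did not pair arrays within a tissue: same-number correlations of deviations ran from -0.117 to 0.13 in brain and from -0.178 to 0.108 in liver. Brain and liver of the same animal label correlated at 0.038 to 0.302 in NC and 0.168 to 0.228 in CC. All G20 arrays have a single label, so their tissues cannot be paired by it.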

Additional observations from a re-analysis of the deposited data

Results flagged for a closer look

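Of 123 groups of 4 arrays examined among tested members, 8 held an array far from the other 3, where chance alone would mark about 1 in 20 groups. In brain these were Pcdhb4 on NC replicate 2 (-1.90, others -1.16 to -1.01), Pcdhga1 on CC replicate 3 (-2.91, others -5.25 to -5.18), Pcdhb20 on G20 replicate 4 (1.12, others 1.32 to 1.34), the first Pcdhb13 probe on G20 replicate 2 (-3.66, others -3.20 to -3.11) and the first Pcdhb5 probe on G20 replicate 2 (-0.25, others 0.011 to 0.040). In liver they were the first Pcdhb17 probe on CC replicate 1 (-3.47, others all at -3.69), the second Pcdhga4 probe on CC replicate 3 (-3.17, others -3.03 to -3.02) and Pcdhb21 on G20 replicate 1 (-2.63, others -2.96 to -2.93). Pcdhga1 on brain CC replicate 3 was the widest of these gaps, and choroid plexus markers were low on the same brain G20 replicate 2 that was low for the first Pcdhb13 and Pcdhb5 probes.

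Brain and liver differed in how CC departed from NC at 6 members, by limma's test of the difference of differences. The brain difference exceeded the liver difference by 1.17 at Pcdha6 and by 0.90 at Pcdhb22. It was below the liver difference at the first Pcdhb17 probe (-1.04), Pcdhb6 (-0.68), the second Pcdhga9 probe (-0.65) and the second Pcdhb17 probe (-0.56). The background share for this comparison was 53.2% of all tested probes. Except at the second Pcdhb17 probe, the liver filter on background was passed through some groups only, so these values are a description only.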

How the results depend on the processing

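The count of members called between brain G20 and NC, 6, became 0 with normexp or with only the 2 groups compared, 2 with centring on the median, 1 with no filter and 1 with a replicate block, and in liver 2 became 11 with normexp and 1 with quantile normalisation, with 1 probe per gene name, with only 2 groups or with the replicate block, whose call was not among the main 2. Brain CC minus NC gave 5 with normexp and 6 on the authors' values, and brain G20 minus CC 5 and 16. Liver CC minus NC gave 0 with normexp, 16 with no filter and 0 on the authors' values, and liver G20 minus CC gave 0 with normexp, 6 with median centring, 5 with quantile normalisation, 21 with no filter, 0 on the authors' values and 8 with 2 groups. Brain minus liver gave 24 in NC and 17 in CC with normexp. The difference of differences gave 1 with normexp and 3 with no filter for G20, and 1 and 23 for CC. With the animal label as a replicate block, or in G20, where no label pairs the tissues, the replicate number, the tissue counts were 39, 37 and 38 and the differences of differences 0 and 6, at a within-animal correlation of 0.112, and the block on replicate numbers gave 26 in brain CC minus NC and 26 in brain G20 minus CC.

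Cluster medians also moved. In brain G20 minus NC, normexp gave 0.43 for beta and 0.50 for gamma. In brain CC minus NC, beta was at 0.45 with normexp, -0.19 with median centring and -0.13 on the authors' values, and gamma at 0.92 with normexp and -0.39 with quantile normalisation. In brain G20 minus CC, beta was at -0.048 with normexp, 0.40 with median centring, 0.46 with quantile normalisation, 0.45 with no filter, 0.33 with 1 probe per gene name and 0.32 on the authors' values, gamma at -0.42 with normexp, and alpha at 0.011 with quantile normalisation and 0.23 on the authors' values. Over all probes normexp moved the median of brain CC minus NC from 0.033 to 0.42 and median centring to 0.17. Normexp adds the same offset to arrays whose 75th percentiles differ, which shifts dim probes by construction.

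Directions turned as follows. With normexp, Pcdhgb4 was at 0.50 in brain G20 minus NC. In brain CC minus NC, normexp put the fourth Pcdhga9 probe at -0.043, the third Pcdhac2 probe at -0.072, Pcdhgb4 at 1.02, the first Pcdhb13 probe at 0.63, the first Pcdhb16 probe at 0.30, the second Pcdhb5 probe at 0.68, the first Pcdhb15 probe at 0.20 and Pcdha6 at 0.14. Quantile normalisation put the fourth Pcdhga9 probe and the third Pcdhac2 probe at -0.31 and -0.23. On the authors' values Pcdhb20 was at -0.048, the second Pcdhac2 probe at -0.094, Pcdhb10 at -0.019, the second Pcdhb17 probe at -0.099, the fourth Pcdhga9 probe at -0.36 and the third Pcdhac2 probe at -0.16. Leaving out 1 array at a time put Pcdhga1 at -0.056 (without brain CC replicate 3) to 0.72. In brain G20 minus CC, normexp put the second Pcdhb5 probe at -0.11 and the third Pcdhga9 probe at 0.014, quantile normalisation the fourth and the third Pcdhga9 probes at 0.19 and 0.28, and the authors' values Pcdhb20 at 0.24, Pcdhb22 at 0.19, the second Pcdhac2 probe at 0.23, the fourth Pcdhga9 probe at 0.26, Pcdhb7 at 0.25, Pcdhb10 at 0.23 and the third Pcdhga9 probe at 0.29. In liver G20 minus NC, normexp put the Pcdhb17 probes at -1.37 and -1.20. In liver CC minus NC it put them at -0.33 and -0.27, Pcdhb21 at -0.13 and Pcdhb20 at -0.30, and the authors' values put the fourth and the third Pcdhga9 probes at -0.026 and -0.25. In liver G20 minus CC, normexp put Pcdha6 at -0.80 and the fourth Pcdhga9 probe at 0.036, and the authors' values the third and the fourth Pcdhga9 probes at 0.30 and 0.27. Apart from what the construction of a setting shows, the cause was not tested.

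Leaving out each array gave counts of 0 to 5 in brain G20 minus NC, 22 to 31 in brain CC minus NC, 26 to 29 in brain G20 minus CC, 0 to 2, 6 to 8 and 3 to 6 in the liver comparisons in the same order, 38 to 40, 36 to 37 and 38 to 39 between tissues in NC, CC and G20, and 0 to 0 and 6 to 7 in the differences of differences. Cluster medians for alpha, beta and gamma ran from -0.23 to -0.030, 0.26 to 0.32 and -0.031 to 0.088 in brain G20 minus NC, from -0.17 to 0.032, -0.37 to -0.28 and -0.11 to 0.025 in brain CC minus NC, and from -0.22 to -0.14, 0.48 to 0.57 and 0.11 to 0.42 in brain G20 minus CC. Of the alternatives of counts and cluster medians, 398 stayed within their limits and 62 moved. Of those of single members, 1126 kept direction and call, 153 kept direction and lost the call, 1 gained it and 41 turned. Signal over background limits what liver can show, since 20 members were above it on no liver array.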
